A study of Sporobolus alterniflorus and Setaria viridis with 12 samples.

Results

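The 10 genes described here were higher under salt in leaves of Setaria viridis (a small C4 grass grown as a laboratory model) and stood as high or higher in untreated leaves of Spartina alterniflora (a salt marsh cordgrass, listed in the labels as Sporobolus alterniflorus). They are 10 of 15218 gene IDs in the deposited table. All were chosen by measured values, under 3 conditions on FPKM, the number of fragments assigned to a gene scaled by its length and by library size. First, the lowest S. viridis salt library plus 1 had to be at least 4 times the highest S. viridis control library plus 1. Second, the lowest S. alterniflora control library had to reach the mean of the S. viridis salt libraries. Last, the S. alterniflora salt mean plus 1 had to be at least 0.5 and under 2 times its control mean plus 1. The conditions use values of all 4 groups, so the values and fits below describe the members, and no call among them is evidence for the pattern that chose them.

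Mature leaves were sampled in 4 groups of 3 libraries: S. alterniflora under NaCl, S. alterniflora control, S. viridis under NaCl and S. viridis control. Both species were raised in soil at the same temperature and day length and moved to hydroponic medium for treatment, S. alterniflora at 2 months of age, from seed gathered near Shanghai. The treatment protocol states 50 mM NaCl for S. alterniflora and 250 mM for S. viridis, but the salt columns of the table carry the numbers 250 and 50 for these species. The dose given to either species is therefore uncertain, and dose and species cannot be told apart. Exchanged species prefixes in the column names would produce the same conflict, and each value below would then belong to the other grass. Species are given here by the column prefixes and libraries by the column letters A to C. The age of S. viridis and the length of treatment are not stated in the labels. Nor do they state whether each library is a different plant, so the spread between libraries may be technical.

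In most plants, salt in the root medium lowers water uptake and then lets sodium build up in leaves, and leaf cells raise transcripts for osmolyte synthesis, ion transport, protein protection and the removal of reactive oxygen. Hormone signalling through abscisic acid drives part of that response. Halophytes such as cordgrasses also expel salt through leaf glands, and some stress genes that are switched on by salt in sensitive plants are already expressed without salt in certain halophytes, as has been described for relatives of Arabidopsis. The files pair 0 of the 15218 IDs with a gene name. No function, pathway or marker of leaf tissue can therefore be attached to any of them, and the labelled tissue was not checked.

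The read depth of the libraries cannot be taken from FPKM and is unknown. Library totals were 710230 to 741399 FPKM in S. alterniflora salt, 666702 to 915944 in S. alterniflora control, 510410 to 542488 in S. viridis salt and 615049 to 631719 in S. viridis control libraries. Values of both species are listed under Setaria IDs, and the step that placed S. alterniflora reads on these IDs is not described in the labels or the file. A level difference between the grasses cannot be told apart from the effect of that step, and reads shared between near-identical gene copies make single IDs uncertain. In whole leaf RNA, fewer cells of a type and less RNA per cell cannot be told apart either.

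Strong salt induction in S. viridis rarely went with a level that high in cordgrass. The first condition was met by 553 genes, and 13 of them, or 2.35%, also met the second. In the whole table the second condition was met by 37.3% of the 14071 genes with any S. viridis salt signal. The first condition by construction favours genes that are high in S. viridis salt libraries, so the 2 shares are given as descriptions. Of the 553, 171 or 30.9% averaged under 1 FPKM in S. alterniflora controls, close to the 27.7% of the whole table. Another way to place them is by group means, and 224 of the 553 were lower in S. alterniflora controls than in S. viridis controls, 307 lay between the S. viridis control and salt means, and 22 reached the salt mean.

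**Figure D1:**
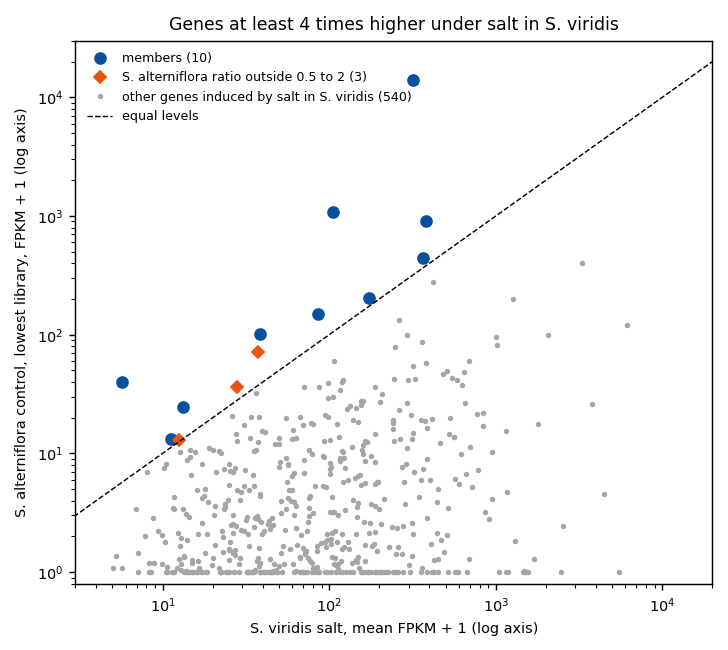
The 553 genes at least 4 times higher under salt in S. viridis, by mean S. viridis salt level (x axis, FPKM + 1) and by the lowest S. alterniflora control library (y axis, FPKM + 1), both on log axes. The 10 members (large circles) and 3 further genes whose S. alterniflora salt to control ratio was outside 0.5 to 2 (diamonds) lie on or above the dashed line of equal levels, and the other 540 lie below it.

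The members were abundant in S. alterniflora and covered more than 3 orders of magnitude there. Their control means ran from 13.6 to 17556 FPKM with a median of 240.2 FPKM, and 7 of 10 were at 100 FPKM or more. In S. viridis their salt means ran from 4.73 to 380.1 FPKM with a median of 94.2 FPKM, against 0 to 33.0 FPKM with a median of 1.68 FPKM in S. viridis controls. The 346 genes that met the first and the third condition but not the second had a median of 3.34 FPKM in S. alterniflora controls. Those 346 genes had a median of 69.0 FPKM in S. viridis salt libraries and 2.25 FPKM in S. viridis controls, beside 94.2 and 1.68 FPKM for the members. The second condition sets the difference between these sets in S. alterniflora.

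**Figure D2:**
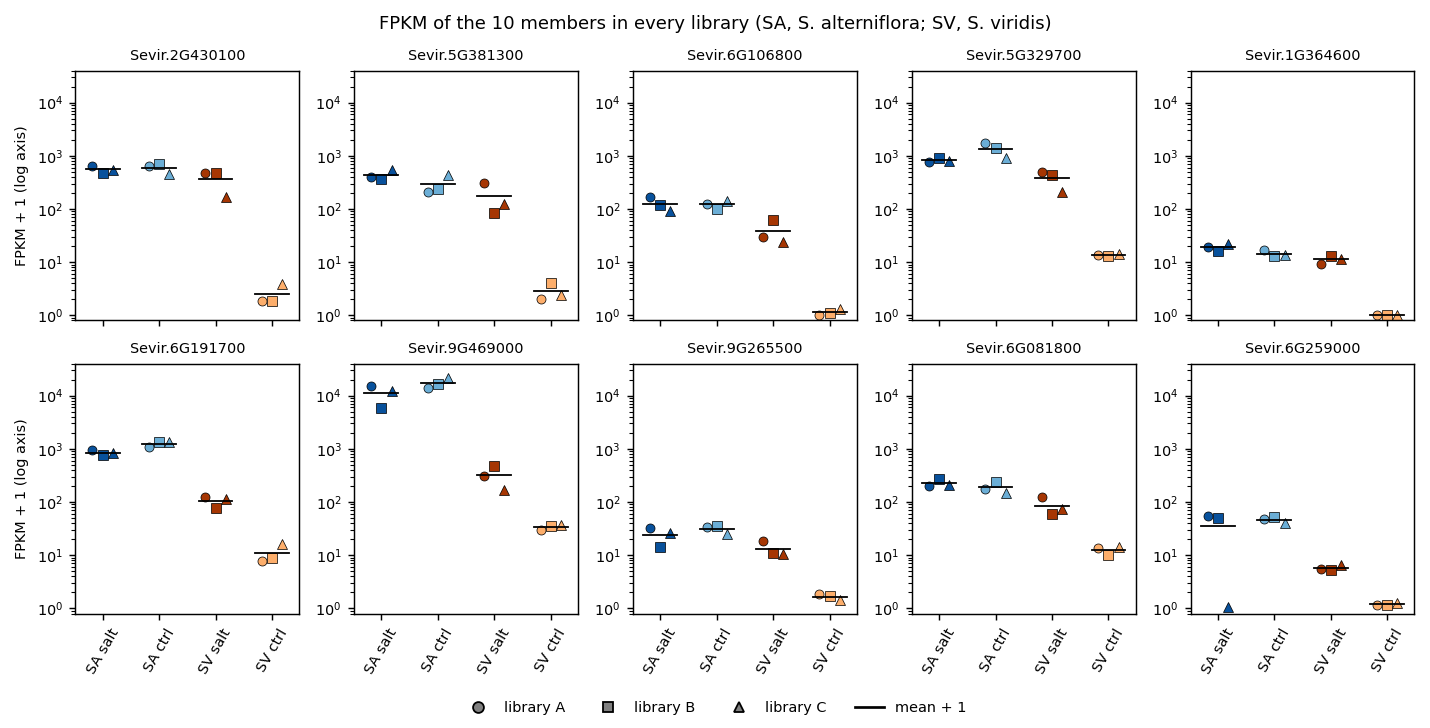
FPKM + 1 on a log axis for each member in every library, with S. alterniflora (SA) salt and control and S. viridis (SV) salt and control from left to right. Symbols give the library letter and black lines the group mean plus 1. In each panel the S. viridis control libraries are lowest, except that S. alterniflora salt library C of Sevir.6G259000 was lower still, at 0.08 FPKM.

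Sevir.2G430100 and Sevir.5G381300 had the largest ratios of S. viridis salt to control means among the 10, each mean plus 1. Sevir.2G430100 had 649.9, 478 and 550.5 FPKM in S. alterniflora salt libraries A to C, against 643, 697 and 445 FPKM in its controls. In S. viridis it had 470.0, 464 and 167 FPKM under salt, against 0.89, 0.83 and 2.86 FPKM in controls. Its S. viridis salt library C was well under A and B, yet all 3 were far above the controls. The ratio of the S. viridis group means was 241-fold. The highest S. viridis salt library lay above the lowest S. alterniflora control library, so these groups overlapped.

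Sevir.5G381300 had 399, 360.4 and 533 FPKM in S. alterniflora salt libraries, against 203, 236 and 439.9 FPKM in its controls. S. viridis had 308, 83.5 and 126 FPKM under salt, against 1.06, 3.01 and 1.44 FPKM in controls. The salt libraries of S. viridis differed by 3.69-fold between A and B, the widest spread of any member in that group. Its S. alterniflora salt mean was the highest relative to control among the members, with a ratio of 1.47 on means plus 1, and the salt and control libraries of that species overlapped. This gene too overlapped between S. viridis salt and S. alterniflora control libraries, since S. viridis salt library A was above S. alterniflora control libraries A and B.

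In Sevir.1G364600 the S. viridis salt level came nearest to that of cordgrass. This gene had 18.2, 15.4 and 21.2 FPKM in S. alterniflora salt libraries, against 15.7, 12.2 and 12.8 FPKM in its controls. The S. viridis libraries were at 8.32, 12.2 and 10.4 FPKM under salt and were listed at 0 in all 3 controls. No fold is given for S. viridis for that reason. All 3 S. viridis salt libraries carried the gene at a similar level, and their mean reached 76.0% of the S. alterniflora control mean.

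Sevir.6G106800 was near 0 in S. viridis controls. It had 169, 118 and 90.1 FPKM in S. alterniflora salt libraries, against 123, 99.7 and 143 FPKM in its controls. Levels in S. viridis were 28.5, 61.8 and 22.5 FPKM under salt, against 0.03, 0.1 and 0.3 FPKM in controls. The ratio of the S. viridis group means was 262-fold, on control values so low that the ratio is imprecise. The S. viridis salt mean was 30.8% of the S. alterniflora control mean, and every S. alterniflora library was above every S. viridis library.

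Sevir.5G329700 was expressed in S. viridis without salt and was high in all S. alterniflora libraries. It had 754, 905 and 793 FPKM in S. alterniflora salt libraries, against 1715, 1401 and 915 FPKM in its controls. In S. viridis the gene had 505, 429 and 206 FPKM under salt, against 12.6, 11.9 and 13.0 FPKM in controls. Its S. viridis controls agreed to within a CV of 4.41%, the smallest of the 9 members with a value above 0 there. In S. alterniflora all 3 salt libraries lay below all 3 controls, the nearest pair being 905 and 915 FPKM.

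Sevir.6G191700 had 933, 768 and 817 FPKM in S. alterniflora salt libraries, against 1081, 1341 and 1322 FPKM in its controls. S. viridis libraries held 123, 76.6 and 113 FPKM under salt, against 6.86, 8.01 and 15 FPKM in controls. Here too each S. alterniflora salt library was below each control. Its S. viridis salt mean was 8.35% of the S. alterniflora control mean, so after a 10.5-fold difference between S. viridis salt and control means it was still far under the cordgrass level.

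Sevir.9G469000 was the most abundant member in S. alterniflora and, of the 10, had the largest ratio of S. alterniflora control to S. viridis salt means. It had 15351, 5970.4 and 12483 FPKM in S. alterniflora salt libraries, against 13875, 16856 and 21937 FPKM in its controls. In S. viridis the values were 303, 483 and 171 FPKM under salt, against 28.7, 34.5 and 35.7 FPKM in controls. By FPKM it ranked between 11 and 19 among all genes of the S. alterniflora salt libraries and between 6 and 12 in the controls, but between 177 and 558 in S. viridis salt libraries and between 2093 and 2502 in S. viridis controls. The S. alterniflora control mean was 55.1 times the S. viridis salt mean, and S. viridis under salt stood at 1.82% of that control mean. Salt library B of S. alterniflora was lower than the other libraries of that species.

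This gene alone made up 1.56% ± 0.639 (SD, n = 3) of total FPKM in S. alterniflora salt libraries and 2.23% ± 0.401 in S. alterniflora controls. All 10 members together made up 1.98% ± 0.645 in S. alterniflora salt libraries and 2.74% ± 0.426 in S. alterniflora controls. In S. viridis the 10 made up 0.286% ± 0.106 under salt and 0.0115% ± 0.00138 in controls (SD, n = 3). Without Sevir.9G469000 the summed level of the other 9 was 3075 ± 116 FPKM in S. alterniflora salt and 3879 ± 339 FPKM in S. alterniflora control libraries. The same sum was 1173 ± 427 FPKM in S. viridis salt and 38.4 ± 6.90 FPKM in S. viridis control libraries.

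Sevir.6G081800 was the member with the highest S. viridis control level relative to cordgrass, at 6.21% of the S. alterniflora control mean. It had 198, 276 and 208 FPKM in S. alterniflora salt libraries, against 176, 236 and 149.65 FPKM in its controls. S. viridis showed 122, 57.9 and 72.9 FPKM under salt, against 12.8, 8.98 and 13.1 FPKM in controls. All S. alterniflora libraries were above all S. viridis libraries, while salt and control libraries of S. alterniflora overlapped.

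Sevir.9G265500 was a lower member in both grasses. It had 31.5, 13.0 and 24.7 FPKM in S. alterniflora salt libraries, against 32.7, 33.9 and 23.7 FPKM in its controls. Values in S. viridis were 17.3, 10.05 and 9.31 FPKM under salt, against 0.84, 0.69 and 0.44 FPKM in controls. S. alterniflora salt library B was under S. viridis salt library A, so the salt groups of the species overlapped, although each S. alterniflora control library was above each S. viridis salt library.

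Sevir.6G259000 had 1 S. alterniflora library far from the rest. It had 52.5, 48.7 and 0.08 FPKM in S. alterniflora salt libraries, against 47.9, 50.7 and 38.9 FPKM in its controls. In S. viridis the level was 4.51, 4.23 and 5.44 FPKM under salt, against 0.18, 0.18 and 0.25 FPKM in controls. Salt library C of S. alterniflora was thus close to 0 while the other 5 libraries of the species were at 38.9 FPKM or more. Without that library the salt mean was 50.6 FPKM and the ratio to control 1.10 on means plus 1, against 0.742 with it, and the gene met the rule either way. In S. viridis its salt mean was the lowest of the members in FPKM, at 4.73 FPKM. That mean was 10.3% of the S. alterniflora control mean.

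Ordered by how much of the S. alterniflora control level was reached under salt, the S. viridis means of the members ran from 76.0% to 1.82%. Sevir.1G364600, Sevir.2G430100 and Sevir.5G381300 reached 76.0%, 61.7% and 58.8%. Sevir.6G081800, Sevir.9G265500, Sevir.6G106800 and Sevir.5G329700 reached 45.0%, 40.6%, 30.8% and 28.3%. The lowest were Sevir.6G259000, Sevir.6G191700 and Sevir.9G469000, at 10.3%, 8.35% and 1.82%. The CVs of the S. viridis salt libraries ran from 13.4% to 69.2% with a median of 40.3%, so neighbours among the first 7 in this order differed by less than the larger of their SDs between S. viridis salt libraries.

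**Figure D3:**
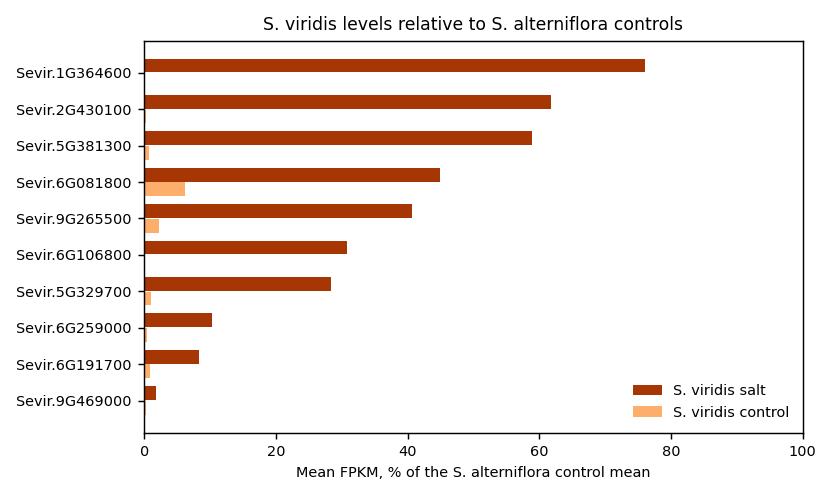
Mean FPKM of each member in S. viridis salt (dark bars) and S. viridis control libraries (light bars), as a percentage of the S. alterniflora control mean, without error bars. Salt bars run from 76.0% for Sevir.1G364600 to 1.82% for Sevir.9G469000, and the highest control bar is 6.21% for Sevir.6G081800.

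In S. alterniflora the members varied around their control level. The ratio of salt to control means, each plus 1, was under 1 for 6 members and over 1 for 4, from 0.609 for Sevir.5G329700 to 1.47 for Sevir.5G381300. Salt and control libraries overlapped for 8 members. For the other 2, Sevir.5G329700 and Sevir.6G191700, each salt library was below each control, as it was for 6.29% of all genes. Library B was the lowest of the 3 salt libraries for 6 members, and it lay outside the range of 0.5 to 2 for Sevir.9G469000 and Sevir.9G265500. Shares over all genes were not counted for library B or for ratios under 1, so no result is read from these counts.

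**Figure D4:**
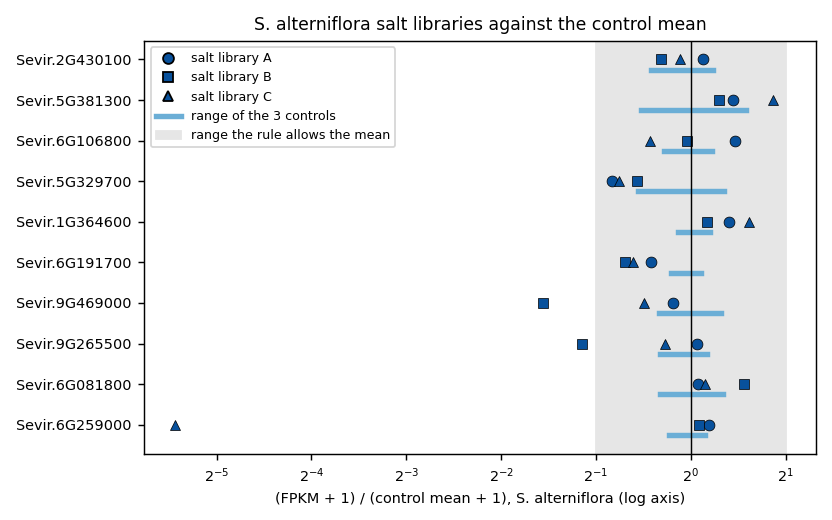
S. alterniflora salt libraries (symbols by letter) as a ratio to the control mean, each plus 1 FPKM, on a log axis, with the range of the 3 controls as a light bar under each gene and the range allowed for the mean in grey. Most symbols lie in the grey range, and the exceptions are library B of Sevir.9G469000 and Sevir.9G265500 and library C of Sevir.6G259000.

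A mean ratio between 0.5 and 2 does not show that a gene was unaffected by salt in S. alterniflora. Fitted with limma on log2(FPKM + 1) over 11330 genes, 0 of the 10 members were called at an adjusted p under 0.05. Of all genes tested, 1.62% were called in either direction. In the same fit 1 member, Sevir.6G191700, had an unadjusted p under 0.05. The share of all genes at that unadjusted level was not counted, so no result is read from this 1 member. The background count of 184 genes, the 1.62% above, varied with the libraries fitted. In 1 fit over all 12 libraries it was 526 of 12529 genes. With controls A, B or C left out in turn it was 0, 67 or 49. With salt library A, B or C left out it was 116, 154 or 35. A smaller group can by itself lower such counts. The last condition used these same libraries, so neither the count of 0 nor the intervals that follow are a test of the members. The intervals show only how precisely each difference of mean log2(FPKM + 1) was measured. That difference is another quantity than the ratio of means plus 1. The 95% intervals of the fold from that fit lay inside 0.5 to 2 for 4 members, Sevir.2G430100, Sevir.6G106800, Sevir.1G364600 and Sevir.6G081800. They reached from 0.391 to 1.01 for Sevir.5G329700 and from 0.463 to 0.981 for Sevir.6G191700. For Sevir.6G259000, with its divergent library C, the interval was 0.0334 to 2.79. It surrounds a log2 difference of -1.71, while the ratio of means plus 1 for that gene was 0.742.

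The same fits give the size of the other differences on one scale. S. viridis salt minus control was 2.25 ± 0.19 (log2 difference ± SE) for Sevir.6G259000 at the low end and 7.13 ± 0.48 for Sevir.2G430100 at the high end. The median was 3.40, against -0.12 over the 11266 genes tested. The low end depends on the 1 FPKM added before the log. With 0.1 FPKM added, Sevir.6G259000 was at 3.99 and Sevir.6G081800 was the lowest member, at 2.79. S. alterniflora control minus S. viridis control was 3.86 ± 0.17 for Sevir.1G364600 at the low end and 8.99 ± 0.22 for Sevir.9G469000 at the high end. The median here was 6.63, against -0.16 over 12134 genes. Both ends again depend on the added value, since Sevir.1G364600 was listed at 0 in the S. viridis controls. With 0.1 FPKM added, that gene was at 7.08. Sevir.6G081800 was then lowest, at 3.99, and Sevir.6G106800 highest, at 9.11. All 10 members were called higher in both contrasts, where 25.4% and 32.8% of the tested genes were called in that direction. The rule used these contrasts, so the calls are no evidence about the members.

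Under salt, each S. alterniflora library was above each S. viridis library for 8 of 10 members, and for 33.2% of all genes. The exceptions were Sevir.9G265500 and Sevir.6G259000. Each S. alterniflora control library was above each S. viridis salt library for 8 members as well, and for 33.3% of all genes, the exceptions being Sevir.2G430100 and Sevir.5G381300. The second condition largely fixes the count for S. alterniflora controls. The second and last conditions together largely fix the count under salt.

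Under salt the S. viridis libraries did not rank alike across members. Library A was highest for 6 members, B for 3 and C for 1. Library C was the lowest for 5 members, B for 4 and A for 1. Over all 553 genes of the first condition, C was the lowest in 65.3%, B in 26.9% and A in 7.78%. Members differed by 1.29-fold to 3.69-fold between their highest and lowest S. viridis salt library.

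Several members lay close to a boundary of the rule. At the first condition Sevir.6G081800 and Sevir.6G259000 were just inside, each with a ratio of 4.18, and the nearest gene outside that met the other conditions, Sevir.7G188100, had 3.95. At the second condition Sevir.5G381300 and Sevir.1G364600 were just inside, with a lowest S. alterniflora control of 1.18 times the S. viridis salt mean each, and the nearest outside, Sevir.9G212800, was at 0.886 times. The 3 genes that met the first and second conditions but not the third were Sevir.2G384900 and Sevir.9G319700, with S. alterniflora ratios of 2.67 and 4.14, and Sevir.9G188900 with 0.385. Without S. viridis salt library C, 16 genes met the rule, 9 of the 10 members and 7 others.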

How the data were processed

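Paired-end Illumina reads of mature leaf RNA were made into 1 table by the authors, which holds FPKM with 2 decimals for 15218 IDs in 12 libraries, per the file headers. The names RSEM and edgeR, with no step or version attached, come from the submitters' processing notes. Which aligner, reference or filter was used was not given in the sources used here. Columns were assigned to groups from prefixes and titles. They carry letters, not replicate numbers.

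Members were found by applying the rule to the deposited FPKM. They and the rule were chosen with earlier results of these data known. By the naming rule 2 members would be named where IDs have no names. The other 8, and the genes beyond the boundaries, were named after their values were seen. Role and marker lists could not be used. Contrasts were fitted with limma 3.58.1 in R 4.3.3 (trend, two-sided, Benjamini-Hochberg adjustment, threshold 0.05) on log2(FPKM + 1), keeping genes that averaged at least 1 FPKM over the 6 libraries of each contrast. This scale understates changes of low genes. The fits were also run on artificial data with normal noise of equal spread in both groups, and no outcome of that run is used here. Python 3.11.15, pandas 2.3.3 and matplotlib 3.10.9 were used. Alternatives were another offset, filters, scalings, a fit without trend, a fit over all 12 libraries, a block and leaving out each library.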

Additional observations from a re-analysis of the deposited data

Results flagged for a closer look

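In 2 members every S. viridis salt library was above its controls and every S. alterniflora salt library below its controls. The second of these held for 6.29% of all genes. The S. alterniflora difference, salt minus control, was -0.67 (log2) for Sevir.5G329700 and -0.57 for Sevir.6G191700, against S. viridis differences of 4.72 and 3.31. Neither S. alterniflora difference passed (limma, adjusted p = 0.346 and 0.320). The S. viridis direction was required by the rule, and the difference between the species was not tested. Groups of 3 libraries are too small for a test of single outlying libraries.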

How the results depend on the processing

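The number of genes that met the rule was 10 to 16 when each library was left out in turn, and 8 members were in all 12 of those sets. Sevir.5G381300 dropped out without S. viridis salt library B and Sevir.2G430100 without S. viridis salt library C, in both because the S. viridis salt mean then passed the lowest S. alterniflora control. Without that library C, 16 genes met the rule. An offset of 0.1 FPKM in the ratios gave 37 genes, all 10 members and 27 others, of which 19 averaged under 4 FPKM in S. viridis salt libraries. Upper quartile scaling gave 9 genes, 7 of the members and 2 others. It left out Sevir.6G081800, Sevir.6G259000 and Sevir.9G469000, whose first ratio was then just under the limit. Median scaling gave 12 genes, all 10 members among them.

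Members called were 10 for S. viridis salt under each alternative but a filter at a mean of 5 FPKM, where 9 were tested and called, and 1 fit over all 12 libraries, where 9 of 10 were called, while 34.7% to 62.6% of all tested genes were called in either direction. They were 10 for the species contrast under every alternative, beside 63.1% to 76.5% of all genes, and 0 for S. alterniflora salt, beside 0% to 4.20%. The rule used these contrasts, so steady counts show nothing about the members. Median centring moved the median species difference over all genes to 0.23 from -0.16 (log2). A replicate block by column letter called the same numbers of members, 10, 0 and 10. Deviations of same-lettered libraries from their group means had correlations of -0.07 to 0.05 across genes, beside -0.16 to 0.10 for libraries of different letters. The labels do not say what the letters mean, and a batch shared by letter was not tested. Unknown depth limits values near 0.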

Other observations

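A near loss in 1 S. alterniflora library, as for Sevir.6G259000 in salt library C, was uncommon. Genes under 1 FPKM in that library and at 10 FPKM or more in the other 5 of the species numbered 4, of which 3 were at 0.1 FPKM or less, and 1 of the 4 was a member. By the same count there were 7 genes for salt library B, 2 for control library C and 0 for each other S. alterniflora library, beside 3162 genes at 10 FPKM or more in all 6. In S. viridis the counts were 0 or 1 in each library, beside 3441 such genes.

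Of the 10 member IDs, 4 begin with Sevir.6G, a prefix of 6.60% of all IDs and of 33 of the 553 genes of the first condition. This was noticed after the members were seen and was not tested.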
